A study of Mus musculus with 9 samples.

Results

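The transcriptome of irradiated senescent mouse fibroblasts was described from the 3 samples that carried the scrambled control hairpin, shScr, out of 9 samples in the series. They were picked out by their titles, and the 6 samples with a hairpin against Rela were not analysed here. All 3 were mouse embryonic fibroblasts of strain C57BL/6, primary cells grown from embryos, which had been made senescent with gamma radiation. A lentivirus, a vector that inserts its cargo into the genome, delivered shScr 10 days after irradiation. The cells therefore carried radiation damage and an integrated virus together, and the labels do not state how long after infection RNA was taken. No allele, transgene or Cre was named for any sample, and levels were not compared with non-irradiated or uninfected cells. The study is about the secretome governed by p21, the product of Cdkn1a. Nothing in the labels says that the 3 samples came from separate cultures or embryos. Each SD (n = 3) is thus the spread of these libraries, and its technical part was not tested. Replicate 1 differed from replicates 2 and 3 in genes of the X and Y chromosomes, as given below.

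Senescent cells have stopped dividing for good but remain alive and keep a busy metabolism. After DNA damage the transcription factor p53 turns on Cdkn1a, whose product binds cyclin-dependent kinases, keeps the RB proteins active and so holds E2F-driven genes of DNA replication and mitosis down. Senescent fibroblasts are also known for a secretory phenotype made up of chemokines, cytokines, growth factors, proteases and matrix proteins, through which they act on neighbouring cells and on immune cells.

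The 3 samples held 49774667, 67963506 and 62530781 counts over the 24062 genes of the table. Levels of 1 gene across samples are given in CPM, counts per 1000000 of a library total scaled by TMM. Levels of different genes are compared only in TPM, which divides each gene's counts by the length of its exons and scales every sample to the same sum. At least 1 CPM in all 3 samples was reached by 12421 genes. A mean of at least 10 TPM was reached by 36.0% of the 23656 genes with a known length, at least 100 TPM by 7.21% and at least 1000 TPM by 0.655%. The median over all genes with a length was 1.94 TPM, and the median over the detected genes was 21.1 TPM. A gene with 0 counts could have a level of up to 0.0441 to 0.0603 CPM, depending on the sample (3 counts of the total). This limit takes counts as independent, which was not tested, and low values were more often even than odd.

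The samples differed in a small set of genes, which are described first because they bear on every spread given further on. Xist, the RNA that coats the inactive X chromosome, stood at 1.38, 257 and 280 CPM in replicates 1, 2 and 3. Ddx3y, an RNA helicase gene of the Y chromosome, stood at 73.4, 2.51 and 0.303 CPM in the same order. Eif2s3y, a translation factor gene of the Y chromosome, stood at 41.6, 1.22 and 0.143 CPM. Replicate 1 was thus high in the Y-linked genes and low in Xist, and replicates 2 and 3 the reverse. Kdm5d (21.3, 0.312 and 0.143 CPM) and Uty (17.3, 0.595 and 0.0319 CPM), both histone demethylase genes of the Y chromosome, followed the same order. Replicate 2 was above replicate 3 in each of the 4 Y-linked genes. Sex is not given in the labels, and the part of this difference in other genes was not tested.

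Replicate 2 stood apart in ribosomal RNA. Rn45s, the precursor of the ribosomal RNAs, stood at 1911, 26883 and 2053 CPM, so that replicate 2 was 13.6 times the mean of replicates 1 and 3. Counts listed under Lars2, the leucyl-tRNA synthetase of mitochondria, moved with it at 2039, 6302 and 2188 CPM. In replicate 2 they were 2.98 times the mean of replicates 1 and 3. Whether these reads came from the Lars2 transcript was not tested. The chi-square per degree of freedom over gene counts was 91.1 between replicates 1 and 2, 88.9 between 2 and 3 and 16.7 between 1 and 3. Without Rn45s, Lars2, Xist and the 4 Y-linked genes, a set chosen after their values were seen, it was 23.8, 9.85 and 15.4. No pair was close enough to be 1 library counted again. Across the 8969 genes with a mean of at least 10 CPM, 27 genes differed by more than a factor of 2 between replicates 1 and 2, 9 between 1 and 3, and 5 between 2 and 3.

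**Figure D1:**
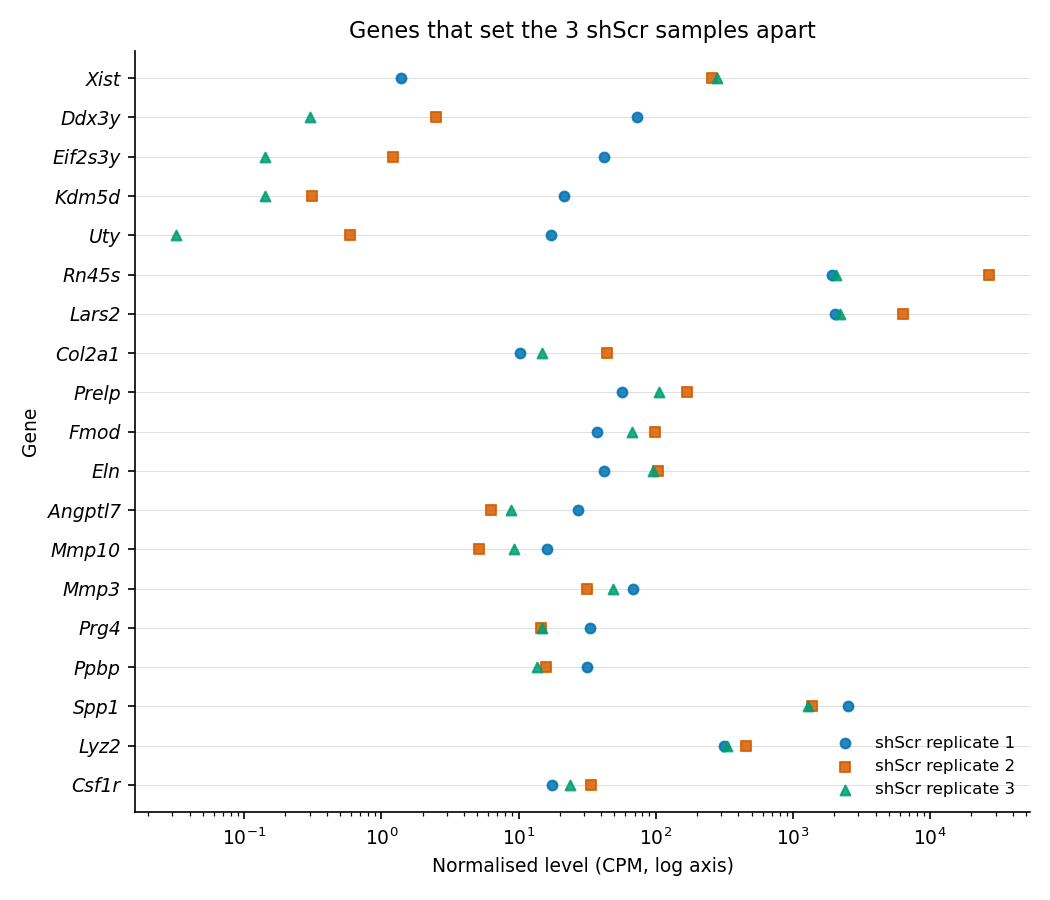
Genes that set the 3 shScr samples apart, with the level in CPM on a log axis and one point per sample. Replicate 1 alone is low in Xist and high in Ddx3y, Eif2s3y, Kdm5d and Uty, and replicate 2 alone is high in Rn45s and Lars2.

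Many of the genes with the highest level encode matrix or cytoskeletal proteins. Among genes with a known length, which leaves out Rn45s, Thbs1 had the highest level at 10733, 11420 and 11537 TPM. It encodes the secreted glycoprotein thrombospondin-1 (chr2:118111876-118127133, plus strand, mm10). Its mean was 11230 ± 434 TPM, and it stood above every other gene with a length in each sample. Eef1a1, the elongation factor that carries tRNA to the ribosome, followed with 9289 ± 433 TPM and Acta2, smooth muscle actin, with 9075 ± 572 TPM, a difference smaller than either SD. Ftl1, the ferritin light chain that stores iron, stood at 7952 ± 131 TPM and Lgals1, galectin-1, at 7731 ± 440 TPM. Sparc, a collagen-binding matrix glycoprotein (7390 ± 400 TPM), Tagln, the actin-binding protein transgelin (7379 ± 452 TPM), Col1a1, the alpha-1 chain of type I collagen (7115 ± 308 TPM), and Fn1, fibronectin (7033 ± 702 TPM), could not be ordered beyond their spread.

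Among the 25 genes with the highest level per length were 8 that encode matrix proteins. Besides Thbs1, Sparc, Col1a1 and Fn1 these were Bgn, the small proteoglycan biglycan (5581 ± 43.1 TPM), and Col1a2, the partner chain of Col1a1 (5077 ± 219 TPM). Tnc, tenascin C (3509 ± 397 TPM), and Fbln2, fibulin-2 (3449 ± 165 TPM), were also among them. The cytoskeleton was represented by Acta2, Tagln, the 2 cytoplasmic actins Actg1 (6429 ± 376 TPM) and Actb (5165 ± 279 TPM), and Vim, the intermediate filament vimentin (5509 ± 81.2 TPM). S100a6 (6841 ± 169 TPM) and S100a11 (4248 ± 233 TPM), both small calcium-binding proteins, and Gapdh of glycolysis (4157 ± 464 TPM) were in the same range. Rplp1 (6923 ± 476 TPM), Rps2 (3892 ± 117 TPM), Rps12 (3305 ± 209 TPM), Rplp0 (3255 ± 107 TPM) and Tpt1 (3055 ± 30.4 TPM) are genes of ribosomal proteins and of a translationally controlled protein. Genes with near-identical processed copies in the genome, such as Eef1a1, Ftl1, Gapdh and those of the ribosome, may have lost reads to the copies. Tagln shares more than 50% of its exon bases with Gm48529, and since strand was not recorded their reads cannot be told apart.

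**Figure D2:**
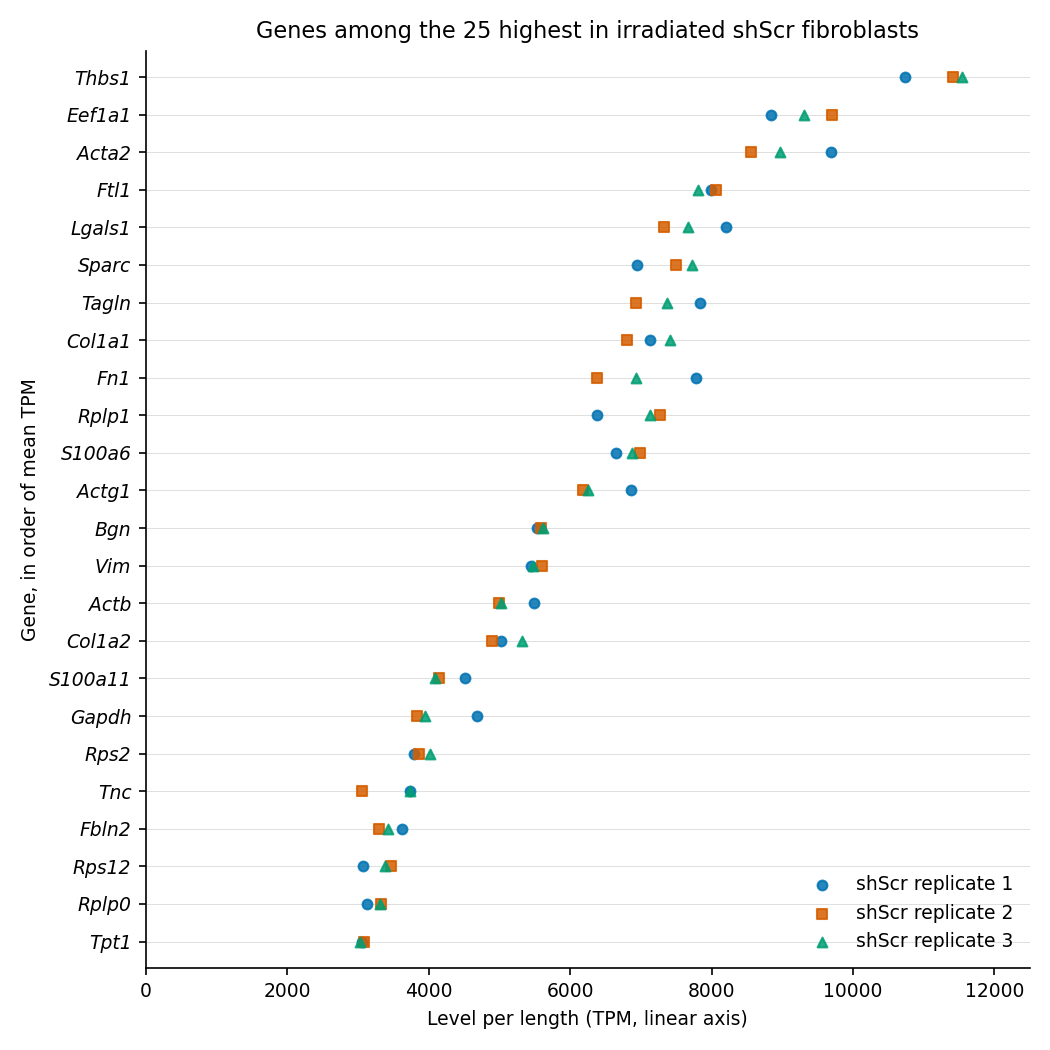
Genes among the 25 with the highest mean level, in TPM on a linear axis that starts at 0, with one point per sample. Thbs1 lies above all other genes drawn in each sample, and from Sparc to Fn1 the points of neighbouring genes overlap.

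By counts, in which long transcripts weigh more, Thbs1 (23297 ± 730 CPM) and Fn1 (21170 ± 2288 CPM) were followed by Col1a1 (14971 ± 688 CPM). Rn45s came next with a mean of 10282 CPM. In replicate 2 it was the highest of all at 26883 CPM, above Thbs1 at 23542 CPM, and held 2.66% of the counts. The 10 highest genes took 11.7 ± 0.795% of all counts (11.2%, 12.6% and 11.2% by sample) and the 100 highest 29.2 ± 0.734%. On the TPM scale the shares were 8.15 ± 0.0794% and 29.4 ± 0.227%. The 84 listed genes of cytosolic ribosomal proteins made up 11.3 ± 0.212% of TPM. That was above the matrix list (7.36 ± 0.258%) and the contractile and cytoskeletal list (6.69 ± 0.274%). By counts the matrix list was above the ribosomal one, at 14.4% and 3.94%. The ribosomal genes were picked by symbol, so that related genes such as Rpl3l and Rps27l are included. Their median SD was 1.97% of the mean. Rpl26, a ribosomal protein that every cell makes, was nevertheless listed at 0 in all 3 samples, and Rpl30 stood at 1.44, 2.37 and 1.61 TPM. A gene listed at 0 in this table is therefore reported as such, not as silent.

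Start-site sequences were available from RefSeq (GRCm38.p6) for 16656 genes of the table, and for 475 of the 683 genes of the lists. A TATA box, searched as TATAAA on the gene's strand with its first base 20 to 45 bases before the start site, was found in at least 1 promoter of 3.10% of all matched genes. It was found in 4.27% of the 117 matched genes with at least 1000 TPM, in 2.56% of those from 100 to 1000 TPM, in 52 of the 5183 from 10 to 100 TPM, which was the lowest share, in 2.30% of those from 1 to 10 TPM and in 5.03% of those under 1 TPM. The 5 genes in the highest class that held it were Vim, S100a4, Postn, Ppia and Anxa1. The windows of the 3 with the highest level are shown because they belong to dominant transcripts of these cells. Capitals mark the motif, and each window reads 5′ to 3′ on the gene's strand.
Vim (chr2:13574267-13574296, plus strand): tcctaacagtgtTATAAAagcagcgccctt
S100a4 (chr3:90603727-90603756, plus strand): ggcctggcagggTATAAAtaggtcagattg
Postn (chr3:54361069-54361098, plus strand): agcccagagctaTATAAActcagctctcca
The motif starts at positions -32, -31 and -26 from the start site. S100a4, a small calcium-binding protein often used to mark fibroblasts, stood at 2951, 3097 and 2802 TPM, and Postn, the matrix protein periostin, at 2946, 2432 and 3327 TPM. S100a4 shares 60.6% of its exon bases with Gm42674, and reads of the 2 genes cannot be told apart there. A match describes the letters of the window and is not a measured binding site.

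Matrix genes as a group stood high. Of 87 listed genes of collagens, glycoproteins and proteoglycans, 70 reached 10 TPM, 46 reached 100 TPM and 14 reached 1000 TPM. Those levels were reached by 36.0%, 7.21% and 0.655% of all genes with a length. The matrix genes had a median of 121 TPM and a sum of 7.36 ± 0.258% of TPM. Among fibrillar collagens, which form the tensile fibres, Col1a1 stood at 7131, 6800 and 7415 TPM and Col1a2 at 5022, 4892 and 5318 TPM. The protein is built from 2 chains of the former and 1 of the latter, and the ratio of the transcripts was 1.42, 1.39 and 1.39. Col3a1 stood at 2360 ± 197 TPM, Col5a2 at 1992 ± 42.3 TPM and Col5a1 at 1493 ± 121 TPM, and the next fibrillar chain, Col5a3, was far below at 89.4 ± 8.41 TPM. Type II collagen of cartilage, Col2a1, stood at 5.65, 24.4 and 8.20 TPM and was high in replicate 2 alone.

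Basement membrane chains were unequal. Col4a1 (1078 ± 90.2 TPM) and Col4a2 (901 ± 71.2 TPM), which assemble into one network and share a bidirectional promoter, kept a ratio of 1.20 ± 0.00754. Nid1, the linker nidogen-1, stood at 802 ± 33.4 TPM, the laminin chain Lamb1 at 478 ± 32.2 TPM and Hspg2, perlecan, at 364 ± 44.1 TPM. Col4a5 was at 155 ± 18.4 TPM. The chains Col4a3 (0.369 ± 0.0649 TPM) and Col4a4 (0.144 ± 0.0386 TPM), typical of kidney and lung, were under 1 TPM. So were the epithelial laminin chains Lama3 (0.147 ± 0.0334 TPM) and Lamb3 (0.357 ± 0.133 TPM). These 4 low chains were named after their values were seen.

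Among other collagens, Col12a1, which sits on the surface of type I fibrils, led with 802, 1001 and 1108 TPM. Col6a1 (668 ± 49.0 TPM), Col8a1 (349 ± 36.3 TPM), Col6a2 (309 ± 21.9 TPM), Col6a3 (293 ± 31.1 TPM) and Col16a1 (169 ± 6.47 TPM) followed. Col10a1, known from growth-plate cartilage, stood at 99.3, 102 and 155 TPM and was high in replicate 3. Among glycoproteins, Postn averaged 2902 ± 449 TPM, so that the top 6 were Thbs1, Sparc, Fn1, Tnc, Fbln2 and Postn. Elastin, Eln, stood at only 30.1, 76.8 and 70.3 TPM and was lowest in replicate 1. Proteoglycans after Bgn were Dcn, decorin (373, 394 and 432 TPM), Aspn, asporin (306 ± 37.8 TPM), Ogn (139 ± 5.39 TPM), Vcan, versican (111 ± 11.6 TPM), and Lum, lumican (95.5 ± 4.43 TPM).

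The samples were not at one level in this group. Replicate 3 was the highest of the 3 samples in 45 of the 83 matrix genes with a mean of at least 1 CPM, where it was the highest in 27.9% of all such genes. Replicate 1 was the lowest in 46 of the 83, where it was the lowest in 37.5% of all such genes. Replicate 3 was highest in 8 of 11 fibrillar collagens. The genes of a list share the 3 libraries, so these counts describe the libraries and carry no test. Prelp, a proteoglycan of cartilage and tendon, stood at 43.5, 133 and 82.7 TPM, and Fmod, fibromodulin, at 33.3, 90.0 and 61.0 TPM. Both were lowest in replicate 1 and highest in replicate 2.

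Enzymes that modify and crosslink collagen had a median of 310 TPM, with 20 of 21 at or above 10 TPM and 18 at or above 100 TPM. The shares over all genes with a length were 36.0% and 7.21%. Serpinh1, the collagen chaperone HSP47, led at 2334, 2451 and 2512 TPM. Lox, lysyl oxidase, which crosslinks collagen and elastin, stood at 1668, 2206 and 1944 TPM. P4hb, a subunit of prolyl 4-hydroxylase, followed at 1477 ± 77.1 TPM, the oxidase Loxl2 at 1234 ± 65.4 TPM and Pcolce, which enhances procollagen cleavage, at 1190 ± 59.3 TPM. Loxl1 was at 478 ± 23.6 TPM. Leprel1, a prolyl 3-hydroxylase, was the 1 member under 10 TPM, at 5.64 ± 0.411 TPM, and 32.1% of its exon bases overlap Gm4524.

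Contractile genes of the smooth muscle type all stood above 100 TPM, a level reached by 7.21% of all genes. Acta2 measured 9692, 8561 and 8973 TPM, Tagln 7837, 6934 and 7364 TPM and Tpm1, a tropomyosin, 2045, 1764 and 1898 TPM. Myl9 (1812 ± 111 TPM), Actg2 (1783 ± 303 TPM), Cald1 (1273 ± 34.8 TPM), Tpm2 (1137, 1017 and 1073 TPM) and Cnn1 (722 ± 71.4 TPM), all regulators or subunits of contractile actin, came next. Myh11, the smooth muscle myosin heavy chain, was lower at 141 ± 10.4 TPM and Lmod1 at 118 ± 7.47 TPM. The median of the 10 genes was 1528 TPM. Replicate 2 was the lowest sample in all 10, where it was the lowest in 34.3% of all genes with at least 1 CPM. Replicate 1 was the highest in 8 of the 10, where it was the highest in 37.9% of all such genes.

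**Figure D3:**
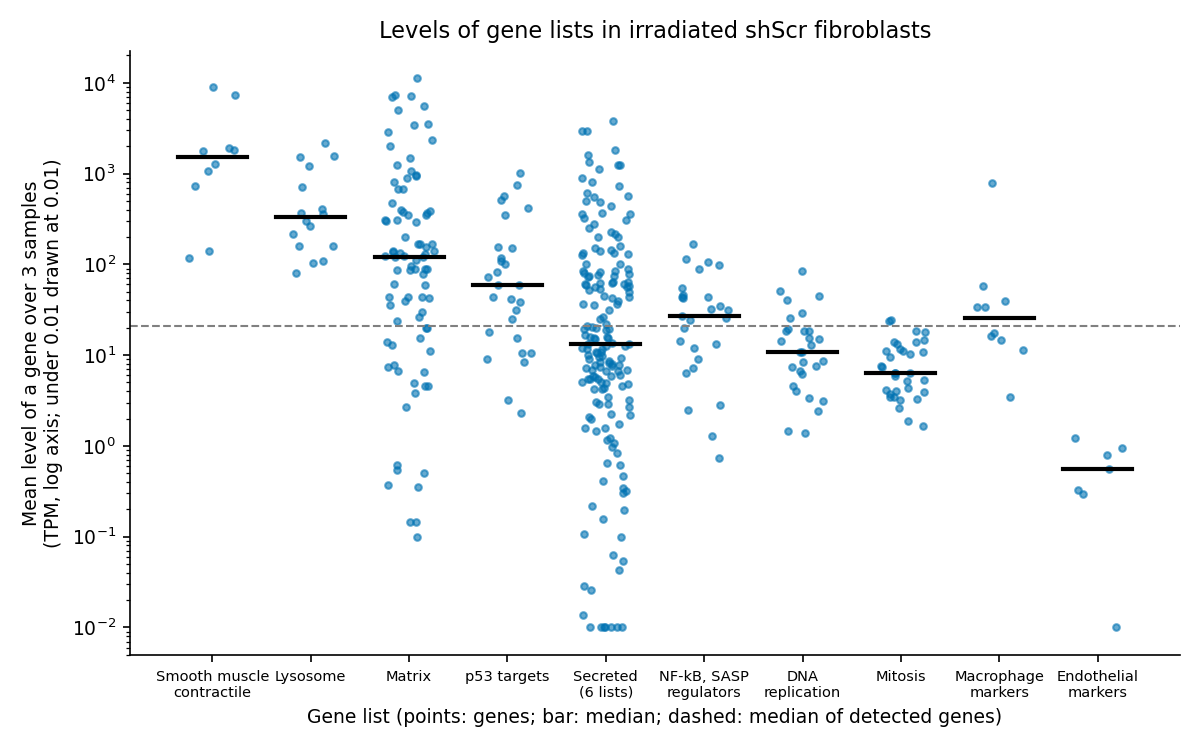
Mean level of each gene over the 3 shScr samples, in TPM on a log axis, by gene list, with a bar at each list's median and a dashed line at the median of detected genes (21.1 TPM). Sideways scatter within a list only separates the points; smooth muscle, lysosome and matrix genes lie mostly above the line and mitosis genes mostly below it.

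Secreted factors spanned a wide range of levels. The 6 lists of chemokines, cytokines, growth factors, IGF binding proteins, proteases with their inhibitors, and complement held 173 genes of the table. Of these, 97 reached 10 TPM, 39 reached 100 TPM, and 7 were listed at 0 in all 3 samples. Over all genes with a length 36.0% reached 10 TPM and 7.21% reached 100 TPM. Of the 24062 genes of the table, 5106 had no count. The secreted genes had a median of 13.3 TPM, between the 1.94 TPM of all genes and the 21.1 TPM of detected genes. Their sum was 3.05 ± 0.0816% of TPM. They were also among the less steady genes. The SD exceeded 20% of the mean in 39 of the 145 with a mean of at least 1 CPM, against 7.01% of all genes at that level.

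Chemokines, the small proteins that attract immune cells, were carried by a few members. Ccl2, which recruits monocytes, stood at 797, 763 and 881 TPM, and its neighbour Ccl7, which acts on the same receptor, at 792, 665 and 730 TPM. The pair had a ratio of 1.12 ± 0.103 and could not be ordered beyond the spread. Cxcl14 was the third chemokine above 100 TPM, at 358, 379 and 329 TPM. Then came Cxcl5, a neutrophil attractant (90.4, 70.5 and 89.9 TPM), Cxcl12, which binds CXCR4 (57.5, 71.2 and 64.0 TPM), and Ccl11, eotaxin (69.8, 47.1 and 58.4 TPM). Ppbp, best known from platelets, was higher in replicate 1 (81.8 TPM) than in replicates 2 and 3 (41.3 and 35.8 TPM). Ccl6 (19.8 ± 0.715 TPM), Ccl8 (22.3, 9.08 and 16.2 TPM), Ccl20 (11.6 ± 0.719 TPM), Pf4 (24.7 ± 3.94 TPM) and Cx3cl1 (19.1 ± 0.932 TPM) were low, and Ccl1, Ccl22, Ccl24 and Cxcl11 were listed at 0. The median of the 35 chemokines was 8.03 TPM.

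Cytokines showed the same shape. Mif, macrophage migration inhibitory factor, stood at 1425, 1129 and 1160 TPM and was highest in replicate 1. Csf1, which sustains macrophages, stood at 573, 525 and 568 TPM. Tnfrsf11b, the decoy receptor osteoprotegerin, followed at 82.6 ± 2.74 TPM. Il6, the cytokine most often used to mark the secretory phenotype, was low at 4.43, 6.15 and 4.71 TPM, so that Ccl2 was 164 ± 34.5 times as high per length. Of its family, Lif (22.6, 20.1 and 23.3 TPM), Clcf1 (14.6, 16.3 and 14.2 TPM) and Il11 (13.3 ± 0.847 TPM) were above Il6. Ctf1 (6.94, 6.04 and 7.05 TPM) overlapped Il6 in range, and Osm was below Il6 at 0.413 ± 0.155 TPM. The IL-1 ligands Il1a (0.217 ± 0.0327 TPM) and Il1b (0.318 ± 0.115 TPM) lay near the floor, and the antagonist Il1rn stood at 7.77, 18.6 and 9.43 TPM, highest in replicate 2. Il18 was at 3.01 ± 0.410 TPM and Il33 at 1.97, 2.35 and 2.28 TPM. Of the other colony-stimulating factors, Il34 was at 9.34 ± 2.10 TPM, Csf3 at 2.23 ± 0.255 TPM and Csf2 at 0.341 ± 0.113 TPM. Ifnb1, interferon beta, was listed at 0.

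**Figure D4:**
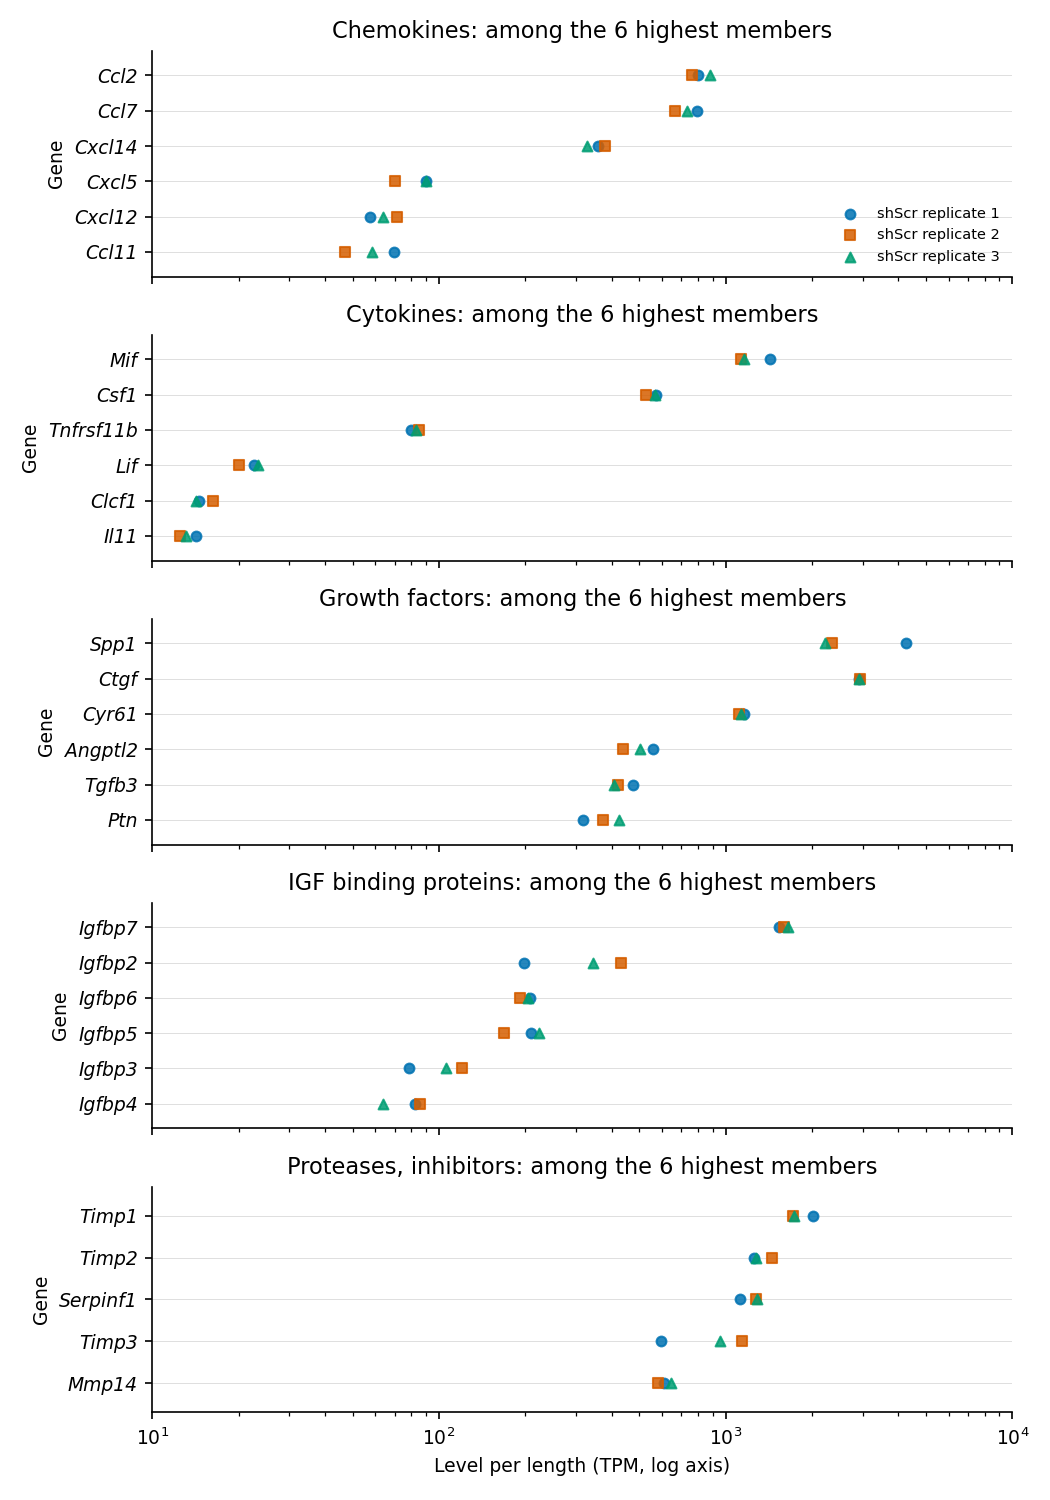
Members among the 6 with the highest level in 5 lists of secreted factors, in TPM on a log axis, with one point per sample. Ccl2 and Ccl7 overlap, Spp1 is high in replicate 1, and Igfbp2 and Timp3 are low in replicate 1.

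NF-kB drives many of these genes, and its motif was therefore searched as GGGNNTTTCC on either strand in windows of 300 bases around the start site. It was found in 1.88% of all matched genes, in 5 of 25 matched chemokines and in 3 of 17 matched cytokines. Ccl2, Ccl7, Ccl11 and Cxcl5 were among the chemokines without a matched sequence. The windows of 4 of these 8 genes are shown, of which Csf1 stood far above the rest. Windows not shown were those of Il1rn (11.9 TPM), Ccl20 (11.6 TPM), Ccl9 (8.96 TPM) and Cxcl2 (2.66 TPM). Capitals mark the match, which reads on the opposite strand in Csf1 and Cxcl1.
Csf1 (chr3:107760604-107760633, minus strand): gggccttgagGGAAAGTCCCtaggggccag
Cxcl1 (chr5:90891146-90891175, plus strand): ccggttgcagGGAAACACCCtgtactccgg
Cxcl3 (chr5:90786018-90786047, plus strand): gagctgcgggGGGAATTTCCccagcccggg
Il6 (chr5:30013060-30013089, plus strand): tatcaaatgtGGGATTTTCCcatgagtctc
Csf1, with the match at -154, averaged 555 ± 26.5 TPM. Cxcl1 (8.35 ± 1.84 TPM), Cxcl3 (8.03 ± 0.444 TPM) and Il6 (5.10 ± 0.921 TPM) held theirs at -89, -73 and -44 and were all under 10 TPM. Cxcl1, Cxcl2, Cxcl3 and Ccl9 were named here for the motif, after their values were seen. Coordinates are of GRCm38.p6, and a match says nothing of binding in these cells.

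Growth factors were led by matricellular proteins. Spp1, osteopontin, stood at 4239, 2350 and 2213 TPM, so that replicate 1 was 1.88 times the mean of the others in CPM. Ctgf, also called Ccn2, was the steadiest at 2906, 2947 and 2912 TPM, although 22.9% of its exon bases overlap Gm15270. Cyr61, also called Ccn1, stood at 1156, 1114 and 1128 TPM. The other CCN genes were Wisp2 (279 ± 64.7 TPM), Wisp1 (230 ± 23.8 TPM) and Nov (59.0 ± 15.2 TPM). In the TGF-beta family Tgfb3 (475, 422 and 408 TPM) exceeded Tgfb1 by a factor of 7.20 ± 0.497. Inhba, the activin A subunit, was at 150 ± 5.15 TPM, Inhbb at 101 ± 9.04 TPM, Tgfb1 at 60.5 ± 5.13 TPM, Bmp4 at 49.1 ± 5.34 TPM and Tgfb2 at 36.4 ± 6.86 TPM.

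Vascular and mitogenic ligands were lower. Vegfa stood at 167, 130 and 139 TPM, Pdgfc at 88.3 ± 4.59 TPM and Figf, or Vegfd, at 52.6, 95.2 and 73.8 TPM. Hbegf, which activates the EGF receptor, led its family at 129 ± 7.70 TPM, followed by Ereg (26.4 ± 2.23 TPM), Nrg1 (4.79 ± 0.550 TPM) and Areg (2.87 ± 0.384 TPM). Fgf7, a growth factor for epithelium, stood at 72.2 ± 5.02 TPM, Fgf10 at 19.2 ± 2.17 TPM and Hgf at 10.1 ± 1.31 TPM. Igf2 stood at 257, 481 and 342 TPM and Igf1 at 5.46, 8.33 and 6.68 TPM, so that both were highest in replicate 2 and lowest in replicate 1. Gm49394 covers 68.5% of the exon bases of Igf2. Angptl2 (499 ± 59.8 TPM), Ptn, pleiotrophin (371 ± 52.0 TPM), and the Wnt antagonists Dkk3 (251 ± 10.3 TPM) and Dkk2 (214 ± 28.7 TPM) also passed 100 TPM, as did the BMP and activin antagonists Grem1 (139 ± 17.7 TPM) and Fst (126 ± 41.9 TPM). Over the 60 growth factors the median was 36.7 TPM, and 42 reached 10 TPM, as did 36.0% of all genes.

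IGF binding proteins, which hold IGF in the extracellular space, were led by Igfbp7 at 1530, 1598 and 1642 TPM. Igfbp2 stood at 198, 431 and 343 TPM and was lowest in replicate 1. Igfbp6 (201 ± 8.25 TPM) and Igfbp5 (200 ± 28.8 TPM) were at one level, with Igfbp3 at 102 ± 21.3 TPM and Igfbp4 at 77.4 ± 11.9 TPM. Igfbp1, typical of liver, was listed at 0.

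Transcripts of the Timp inhibitors outweighed those of the metalloproteinases they block. The inhibitors Timp1 (2015, 1717 and 1728 TPM), Timp2 (1258, 1455 and 1273 TPM), Serpinf1 (1117, 1276 and 1289 TPM) and Timp3 (596, 1140 and 954 TPM) stood high. The summed level of the 4 Timp genes was 2.72 ± 0.266 times that of the 15 listed matrix metalloproteinases. Serpine2 was at 569 ± 70.8 TPM. Among the metalloproteinases, Mmp14, anchored in the cell membrane, stood at 609, 581 and 643 TPM and Mmp2, a gelatinase that it activates, at 462, 507 and 494 TPM. Mmp23 (133 ± 13.1 TPM), Mmp11 (56.3 ± 2.49 TPM) and Mmp19 (43.1 ± 3.22 TPM) were lower. Mmp3, stromelysin-1, which is often named for senescent cells, stood at 106, 49.3 and 76.0 TPM and was lowest in replicate 2. Mmp10 followed the same order at 25.9, 8.47 and 15.3 TPM. The plasminogen activators Plat (350, 262 and 321 TPM) and Plau (177, 160 and 146 TPM) and the receptor Plaur (132 ± 5.68 TPM) all stood above 100 TPM in every sample.

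Complement genes had a median of 12.1 TPM, with 8 of 16 at or above a mean of 10 TPM and none at a mean of 100 TPM. The shares over all genes with a length were 36.0% and 7.21%. C1qa (61.8, 101 and 76.0 TPM), C1qb (60.2, 97.7 and 66.9 TPM) and C1qc (39.4, 76.2 and 53.3 TPM), the chains of the initiating complex, were all highest in replicate 2. Macrophages are a known source of these chains, and markers of that lineage were also highest in replicate 2, in 10 of the 10 genes measured, where replicate 2 was the highest in 34.3% of all genes with at least 1 CPM. Their summed level was 864, 1258 and 920 TPM, and their part in the C1q and Il1rn levels was not tested. Serping1, the C1 inhibitor (62.7 ± 7.85 TPM), Cd55 (62.7 ± 9.26 TPM) and Cd59a (35.3 ± 8.93 TPM), which restrain complement on cells, stood in the same range. Cfd, an adipocyte protease, was listed at 0.

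Among CDK inhibitors Cdkn1a was 635 ± 90.6 times as high per length as the lowest, Cdkn2c. Cdkn1a (chr17:29090976-29100727, plus strand, mm10), which encodes p21, stood at 945, 1053 and 1008 TPM. Its mean of 1002 ± 54.2 TPM was rank 155 among all genes with a length, and in CPM its level was 966 ± 44.6, rank 99. Cdkn2a stood at 286, 376 and 315 TPM. This gene encodes p16 and, from another first exon, p19Arf, and counts per gene cannot tell the transcripts apart. Cdkn2b, which encodes p15, stood at 215, 275 and 246 TPM. The 3 samples of Cdkn2a lay above all 3 of Cdkn2b, with a ratio of 1.33 ± 0.0432, and Cdkn1a was 3.10 ± 0.265 times Cdkn2a.

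The other 4 inhibitors were far lower. Cdkn1c, which encodes p57, stood at 32.9, 29.9 and 27.6 TPM, and 30.3% of its exon bases overlap Gm44732. Cdkn2d, for p19Ink4d, stood at 22.9, 19.4 and 20.3 TPM. Cdkn1b, for p27, stood at 7.31, 6.56 and 7.03 TPM, so that Cdkn1a was 144 ± 15.7 times as high. Cdkn2c, for p18, was the lowest at 1.72, 1.44 and 1.61 TPM. The ranges of the 7 genes did not overlap, and the SD of none exceeded 20% of its mean. The list held 0.163 ± 0.0125% of TPM, most of it from Cdkn1a. Cdkn1a, Cdkn2a and Cdkn2b were lowest in replicate 1, and the 4 lower inhibitors were highest there.

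**Figure D5:**
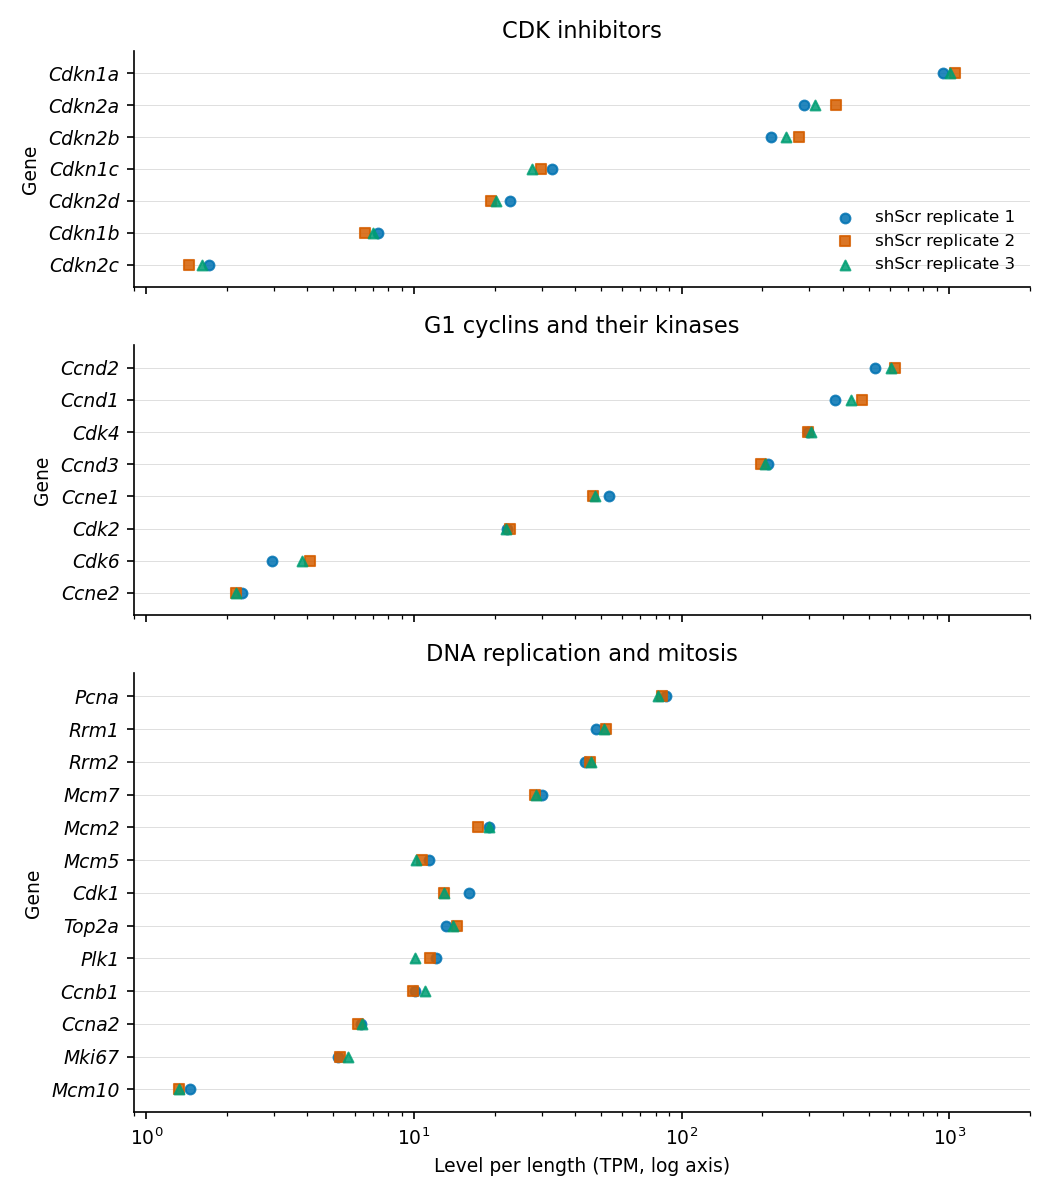
Levels of CDK inhibitors, of G1 cyclins with their kinases, and of 13 genes of DNA replication and mitosis, in TPM on one log axis with one point per sample. Cdkn1a lies above every gene drawn, and the replication and mitosis genes lie below the D cyclins.

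The pocket proteins on which the inhibitors act through cyclin-dependent kinases stood below Cdkn1a, Cdkn2a and Cdkn2b. Rbl2, or p130, which is known from resting cells, stood at 22.1, 24.9 and 22.2 TPM, Rb1 at 10.1, 11.6 and 11.1 TPM and Rbl1, or p107, at 3.76, 4.10 and 4.22 TPM. Their ranges did not overlap. Trp53, which encodes p53, stood at 168, 175 and 174 TPM, and Mdm2, its ubiquitin ligase and transcriptional target, at 289, 319 and 303 TPM, or 1.76 ± 0.0537 times Trp53. Mdm4, the partner of Mdm2, was at 8.86 ± 0.212 TPM.

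Targets of p53 were mostly well expressed, with 24 of 28 at or above 10 TPM and 11 at or above 100 TPM. Over all genes with a length the shares were 36.0% and 7.21%. The median of the targets was 59.5 TPM. After Cdkn1a came Ccng1, cyclin G1 (697, 801 and 735 TPM), Bax, which promotes apoptosis (550, 567 and 569 TPM), and Phlda3, an inhibitor of AKT (479, 548 and 497 TPM). Ephx1, an epoxide hydrolase (413 ± 42.8 TPM), and Plk2, a stress-induced kinase (349 ± 18.9 TPM), completed the top 6. The 4 targets under 10 TPM were Pvt1 (9.16 ± 0.240 TPM), Sesn1 (8.46 ± 1.11 TPM), Trp53cor1 (3.19 ± 0.102 TPM) and Ddb2 (2.31 ± 0.305 TPM), named because they are few. Perp, a desmosomal protein, was the 1 target whose SD exceeded 20% of the mean, at 42.0 ± 17.0 TPM, lowest in replicate 1 and highest in replicate 2. Replicate 1 was the lowest sample in 25 of the 31 genes of p53, its regulators and its targets, where it was the lowest in 37.5% of all genes, and replicate 2 was the highest in 18, where it was the highest in 34.3% of all genes.

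Among the listed cell cycle genes, the D cyclins and Cdk4 stood highest, and the other genes of the G1 group overlapped those of replication and mitosis in level. In the G1 group Ccnd2, cyclin D2, stood at 528, 629 and 606 TPM, Ccnd1, cyclin D1, at 374, 474 and 430 TPM and Ccnd3 at 210, 198 and 205 TPM. Their kinase Cdk4 stood at 297, 296 and 305 TPM, although 31.2% of its exon bases overlap Tspan31, while Cdk6, which pairs with the same cyclins, was at 2.94, 4.08 and 3.83 TPM. Cdk4 was 84.4 ± 14.9 times Cdk6. Ccne1, cyclin E1 (49.3 ± 3.74 TPM), and Cdk2, its kinase (22.4 ± 0.498 TPM), were intermediate, and Ccne2 was at 2.28, 2.16 and 2.17 TPM. Among the E2F factors, E2f4, which represses with p130, led at 84.3 ± 4.04 TPM. E2f6 followed at 69.2 ± 5.79 TPM, the activator E2f1 at 41.3 ± 3.08 TPM and E2f3 at 22.3 ± 0.945 TPM. E2f5 was at 9.95 ± 0.500 TPM and E2f8 at 2.77 ± 0.0982 TPM.

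The 63 listed genes of DNA replication and mitosis each reached a mean of 1 TPM, as did 54.2% of all genes, and none reached 100 TPM, where 7.21% of all genes lay. Of 29 replication genes 16 reached 10 TPM, with a median of 10.8 TPM. Of 34 mitosis genes 13 reached it, near the 36.0% of all genes, with a median of 6.32 TPM. Both medians lay between those of all genes and of detected genes. Together they held 0.0789 ± 0.00199% of TPM, and their summed level of 812, 776 and 780 TPM was below that of Cdkn1a alone in every sample. Pcna, the clamp of the DNA polymerases, stood highest at 87.6, 84.8 and 81.3 TPM. Next came Rrm1 (50.5 ± 2.40 TPM) and Rrm2 (44.8 ± 1.12 TPM), the subunits of ribonucleotide reductase, then Gins4 (40.8 ± 1.21 TPM), Mcm7 (29.1 ± 0.973 TPM) and Mcm4 (25.4 ± 1.93 TPM) of the replicative helicase. In mitosis Anln, anillin of the cleavage furrow (24.2 ± 2.83 TPM), Cdc20, the activator of the anaphase-promoting complex (23.5 ± 0.910 TPM), Prc1 (20.5, 16.1 and 18.9 TPM) and Tpx2 (18.0 ± 1.35 TPM) of the spindle, Incenp (14.6 ± 0.0616 TPM) and Cdk1 (14.1 ± 1.80 TPM) led.

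Mki67, the gene of the proliferation antigen Ki-67, stood at 5.22, 5.27 and 5.66 TPM, Ccnb1, cyclin B1, at 10.1, 9.89 and 11.0 TPM and Ccna2, cyclin A2, at 6.36, 6.18 and 6.39 TPM. These 3 were named as common proliferation markers although they are not among the highest of their list. Ccnd1 was 41.3 ± 5.85 times Ccnb1 per length. Replicate 1 was the highest sample in 40 of the 63 replication and mitosis genes, where it was the highest in 37.9% of all genes with at least 1 CPM. Sums over RNA from many cells cannot tell fewer dividing cells from less RNA per dividing cell.

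Genes used to recognise senescent cells by other assays were read next. Lmnb1, lamin B1, whose loss is a known sign of senescence, stood at 10.3, 12.4 and 12.7 TPM, while Lmna, for lamins A and C, stood at 530, 590 and 576 TPM, or 48.1 ± 2.98 times Lmnb1. Lmnb2 was at 11.2 ± 0.717 TPM. Of the high mobility group genes, Hmga2 was highest at 165 ± 3.09 TPM, ahead of Hmgb1 (119 ± 1.39 TPM), Hmgb2 (12.6 ± 0.403 TPM), Hmgb3 (10.0 ± 0.846 TPM) and Hmga1 (2.77 ± 0.575 TPM). Of 16 lysosomal genes 15 reached 100 TPM, against 7.21% of all genes. Lysosomal genes were thus high as a group, with a median of 331 TPM. Ctsd, cathepsin D (2193 ± 97.9 TPM), Cd63 (1561 ± 103 TPM), Psap, prosaposin (1518 ± 23.0 TPM), Lamp1 (1218 ± 14.9 TPM), Ctsb, cathepsin B (718 ± 58.7 TPM), and Grn, progranulin (407 ± 21.8 TPM), led them. Glb1, whose product gives the senescence-associated beta-galactosidase stain, stood at 116, 104 and 108 TPM, in the lower part of the list, and was named for that use.

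Regulators of the secretory phenotype stood at moderate levels, with 20 of 27 at or above 10 TPM, against 36.0% of all genes. The median of the regulators was 26.9 TPM. Of the NF-kB subunits, Rela, the p65 gene, stood at 88.0, 87.1 and 90.5 TPM, Nfkb1 at 43.3 ± 1.24 TPM, Nfkb2 at 42.6 ± 2.06 TPM, Relb at 25.7 ± 1.71 TPM and Rel at 1.27 ± 0.133 TPM. Nfkbia, the inhibitor that NF-kB induces, stood at 54.8 ± 2.48 TPM, Nfkbiz at 31.4 ± 5.45 TPM, Nfkbib at 24.5 ± 0.378 TPM, Bcl3 at 14.3 ± 2.79 TPM, Tnfaip3, or A20, at 9.05 ± 0.451 TPM and Nfkbie at 6.41 ± 0.439 TPM. The kinase subunits Chuk (44.2 ± 0.439 TPM), Ikbkb (31.9 ± 0.974 TPM) and Ikbkg (26.9 ± 2.06 TPM) were close together. Among the other factors, the AP-1 genes Jund (168 ± 3.39 TPM), Fosl2 (114 ± 5.13 TPM), Jun (105 ± 1.74 TPM) and Junb (98.6 ± 5.27 TPM) exceeded Cebpb (45.4 ± 4.32 TPM), which drives Il6 in senescent cells, and Tmem173, or STING (34.6 ± 5.15 TPM). Gm11175 overlaps 52.6% of the exon bases of Jund.

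Genes through which lymphocytes and macrophages recognise stressed cells were uneven. B2m, the invariant chain of MHC class I, stood at 1531, 1619 and 1521 TPM, while the heavy chains H2-K1 (145 ± 16.1 TPM) and H2-D1 (57.5 ± 3.66 TPM) and the peptide-loading genes Tapbp (84.5 ± 6.60 TPM), Tap2 (29.8 ± 0.857 TPM) and Tap1 (29.1 ± 2.63 TPM) were lower. H2 heavy chains are similar in sequence, so that reads could be lost between them. Pvr, a ligand of activating receptors on natural killer cells (123 ± 5.61 TPM), and the adhesion molecules Vcam1 (99.0 ± 6.28 TPM) and Icam1 (87.2 ± 8.40 TPM) led their group. Cd47, which restrains phagocytosis, stood at 18.3 ± 1.97 TPM and Cd274, or PD-L1, at 3.07 ± 0.528 TPM. The NKG2D ligands were low, with Ulbp1 at 2.64 ± 0.238 TPM, Raet1d at 2.35 ± 0.148 TPM, H60b at 1.52 ± 0.450 TPM and Raet1e at 0.731 ± 0.132 TPM, and the last 3 overlap in exon bases, so that their reads are uncertain.

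Markers of the labelled cell type were present in every sample, with 10 of 10 fibroblast genes at or above 10 TPM. Over all genes with a length 36.0% reached that level. Thy1 stood at 1854 ± 103 TPM, Pdgfrb at 156 ± 17.5 TPM, Pdgfra at 40.4 ± 4.87 TPM and Fap at 12.9 ± 0.703 TPM. Macrophage genes were also measured, led by Lyz2, lysozyme, at 671, 975 and 710 TPM. Tyrobp (47.3, 74.1 and 53.7 TPM), Emr1, or F4/80 (12.2, 20.6 and 15.4 TPM), Csf1r (10.1, 19.4 and 13.8 TPM) and Ptprc, or CD45 (2.60, 4.57 and 3.10 TPM), were lower. Fcer1g (39.7 ± 7.88 TPM), Laptm5 (34.1 ± 7.17 TPM), Cd68 (33.6 ± 6.26 TPM), Cd14 (17.8, 18.7 and 16.7 TPM) and Itgam (11.4 ± 2.06 TPM) completed the list. The SD exceeded 20% of the mean in 6 of these 10 genes, against 7.01% of all genes with a mean of at least 1 CPM.

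Markers of other lineages were uneven. A mean of 1 TPM was reached by 0 of 7 red cell, 1 of 7 endothelial, 2 of 7 neural, 2 of 7 skeletal muscle, 4 of 7 epithelial, 4 of 7 cartilage and bone, 4 of 6 adipocyte and 6 of 6 pericyte genes, against 54.2% of all genes. The 7 endothelial genes summed to 4.23, 4.34 and 3.83 TPM, with Pecam1 at 0.325 ± 0.0500 TPM, Cdh5 at 0.295 ± 0.0903 TPM and Tie1 listed at 0. The 7 epithelial genes summed to 40.6, 34.8 and 30.7 TPM, mostly from Krt19 and Krt18, with Epcam at 0.128 ± 0.0228 TPM and Cdh1 at 0.0938 ± 0.0425 TPM. Among skeletal muscle genes, Des stood at 339, 178 and 238 TPM and Acta1 at 330, 199 and 211 TPM, both highest in replicate 1, whereas Myod1 (0.0512 ± 0.00770 TPM) and Myog (0.136 ± 0.0410 TPM) lay near the floor and Myf5 was listed at 0. Of 7 neural genes, Tubb3 (131 ± 0.572 TPM) and Nes (71.0 ± 3.86 TPM) were measured above 1 TPM, and Sox10, Sox2, Gfap and Map2 were each under 1 TPM. The 7 cartilage and bone genes summed to 32.4, 52.1 and 37.9 TPM, the 6 adipocyte genes to 32.2, 38.6 and 34.5 TPM and the 6 pericyte genes to 255, 269 and 274 TPM, led by Mcam (200 ± 5.34 TPM). Of 7 red cell genes 5, all globins, were listed at 0, and the globin copies are too alike for their reads to be assigned with ease.

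Genes of the Hox clusters, which record a cell's position along the body and limb, were detected from every cluster. Of 39 genes, 37 reached 1 TPM, against 54.2% of all genes. At 10 TPM there were 16, near the 36.0% of all genes, and at 100 TPM none, with a median of 7.57 TPM. Hoxb9 led at 83.7, 74.8 and 80.6 TPM, followed by Hoxc6 (51.7, 54.9 and 61.1 TPM), Hoxc8 (43.2, 44.8 and 53.3 TPM), Hoxc10 (27.4 ± 2.95 TPM), Hoxb2 (24.6 ± 2.88 TPM) and Hoxd11 (22.6 ± 5.52 TPM). Hoxd1 (0.180, 0.204 and 0.0967 TPM) and Hoxb1 (0.0178 ± 0.0309 TPM), the only members under 1 TPM, were at the other end.

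The spread between the samples was small for most genes. The median SD was 5.31% of the mean over the 12682 genes with a mean of at least 1 CPM, with quartiles of 3.02% and 9.62%. Over the 8969 genes with at least 10 CPM it was 4.18%, and 2.04% of them exceeded 20%. The common biological coefficient of variation from edgeR, the spread left after counting error, was 8.92%. By list, the median SD was 1.97% for ribosomal proteins, 4.87% for lysosomal genes, 5.51% for replication genes, 9.60% for matrix genes and 12.6% for the secreted lists.

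The 10 genes of largest relative SD at 10 CPM or more were Eif2s3y (165%), Ddx3y (164%), Rn45s (140%), Xist (86.2%), Angptl7 (80.4%), Col2a1 (79.3%), Lars2 (68.9%), Mmp10 (53.7%), Prelp (51.5%) and Prg4 (51.3%). Angptl7, an angiopoietin-like protein, stood at 27.1, 6.35 and 8.86 CPM and Prg4, the joint lubricant lubricin, at 33.4, 14.6 and 14.9 CPM. Both were high in replicate 1 alone, as was Ppbp (31.7, 15.8 and 13.7 CPM). Mmp10 (16.0, 5.14 and 9.34 CPM) was highest in replicate 1 and lowest in replicate 2. Genes low in replicate 1 included C1qtnf3, a secreted relative of C1q (93.6, 259 and 205 CPM), Eln (41.6, 104 and 95.9 CPM) and Prelp (56.3, 170 and 106 CPM). Replicate 2 was highest in Lgr5, a receptor of R-spondins (9.86, 28.4 and 18.0 CPM), and lowest in Mmp3 (68.6, 31.3 and 48.5 CPM) and Tfpi2, a protease inhibitor (20.1, 9.39 and 15.4 CPM). Replicate 3 was highest in Tnn, tenascin W (84.5, 56.9 and 118 CPM), Col14a1 (12.6, 11.7 and 20.2 CPM), Col10a1 (111, 113 and 172 CPM) and Bcl11b, a transcription factor (8.76, 9.82 and 13.3 CPM), and lowest in Cd59a (26.9, 25.1 and 16.1 CPM). The SD over genes of a sample's log2 CPM minus the mean of the others was 0.18 in replicate 1, 0.14 in replicate 2 and 0.11 in replicate 3, so that replicate 1 lay farthest from the others.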

How the data were processed

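RNA from irradiated C57BL/6 mouse embryonic fibroblasts was column-purified, and libraries came from a TruSeq RNA kit, per the labels' protocols; that kit does not mark strand. The deposited values are raw counts, 1 row per gene symbol and 1 column per sample. Subread with featureCounts 1.4.6, Bowtie2 2.2.6, TopHat2 2.0.14 and the mm10 build are listed in the submitters' processing notes, with no settings. Low values in the deposited counts were more often even than odd: per sample the value 1 occurred 266 to 335 times and the value 2 occurred 846 to 905 times, and no source used here states whether mates were counted separately. Only the 3 shScr columns were used, and the 6 knockdown columns were not analysed here. Replicate numbers come from the titles, in which the shScr samples carry a dataset tag.

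CPM were computed from totals (49774667 to 67963506 counts) scaled by TMM over the 3 samples (factors 0.99 to 1.01) in edgeR 4.0.16 under R 4.3.3. TPM used the union of exons of each gene in GENCODE M21 (GRCm38). Of 24062 symbols, 22750 matched directly, 906 through an older symbol and 406 not, Rn45s among the latter. No symbol of the mitochondrial genome is listed in the columns used here. Overlaps between genes were counted in exon bases. The common dispersion came from estimateDisp with an intercept alone after filterByExpr. It was also run on simulated counts, which were drawn as independent and so cannot show how the excess of even values affects it. DESeq2 1.42.0 and Python 3.11.15 gave alternatives and tables. With 1 group no comparison between groups and no p-value was made. Limits for 0 counts use 3 counts of a total, take counts as independent and cover counting error only.

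The samples and the 29 gene lists, including the markers of other cell types, were chosen with earlier results of these data known. Genes were named by rule: the 25 with the highest TPM, every member of lists of up to 10 genes, the 6 highest of each role in longer lists and those listed at 0, the 6 highest and 6 lowest of each sample against the others, and the 10 of largest relative SD. Genes outside this rule, among them S100a4, Perp, Leprel1, Rpl30, Mki67, Ccnb1, Ccna2 and Glb1, were named after their values were seen, and a few genes that the rule names are not reported here. Alternatives were other scalings, filters and lengths, halved counts, and each sample left out. Leaving out Rn45s, Lars2 and the sex-linked genes was added after the data were seen.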

Additional observations from a re-analysis of the deposited data

How the results depend on the processing

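No paired analysis was possible because the 3 samples form 1 group and no test between groups was made. Totals without mitochondrial genes could not be computed, since the columns used list none. Of the 609 listed genes with a mean of at least 1 CPM, 0 moved by over 1.5 times with unscaled totals or DESeq2 size factors, and 0 without replicate 3. Without replicate 1 the 4 Y-linked genes did: Ddx3y went from 25.4 to 1.41 CPM, Eif2s3y from 14.3 to 0.681, Kdm5d from 7.24 to 0.228 and Uty from 5.98 to 0.313. Without replicate 2 Col2a1 went from 23.0 to 12.6 CPM. Without length correction, as a share of counts, the matrix list rose from 7.36% to 14.4%, while the secreted lists stood at 2.68%, replication and mitosis at 0.0827%, CDK inhibitors at 0.127% and ribosomal proteins at 3.94%. With the longest transcript as length, CDK inhibitors held 0.194% and replication and mitosis 0.0761%. Counting genes with at least 1 count in any sample gave 18956 in place of 12421. The 100 highest genes held 28.4% of counts without Rn45s and Lars2, a choice made after seeing the data.

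The median relative SD was 5.35% with unscaled totals, 4.18% at 10 CPM or more and 6.07% over genes with 10 counts, and 3.63% to 5.10% with a sample left out, lowest without replicate 1. The edgeR coefficient of 8.92% became 9.53% without a filter, 8.91% with DESeq2 size factors, 7.54% with halved counts, 7.98% by DESeq2 dispersions and 8.19% without Rn45s, Lars2 and the sex-linked genes. It ran from 6.30% without replicate 1 to 11.7% without replicate 3. The chi-square per degree of freedom without those 7 genes was 23.8 for replicates 1 and 2, 15.4 for 1 and 3 and 9.85 for 2 and 3. With 3 samples, 1 group and no strand, levels of overlapping or duplicated genes and differences between single samples have no replicate check.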
